A study of Mus musculus with 458 samples.

Results

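The genes described here are 43 lysosomal genes, followed across haematopoietic stem cells (HSCs) whose transplanted founder had restored platelets alone, a restricted set of lineages, or all lineages. They were chosen by name from what their products do: 8 cathepsins, 2 other proteases, 11 glycosidases, 4 sulfatases, 7 genes of lipid handling, 9 membrane proteins, 1 granulin precursor and 1 transcription factor. The rule that lists them uses no measured value, but the list was drawn up with earlier results of these data known. All 43 were among the 22645 genes of the expression table. The comparison between groups held 42 of them, since Tfeb did not reach a mean of 1 RPKM (the reads on a gene relative to its length and to the sequencing depth of that cell) in at least 2 mice.

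Lysosomes are acidic organelles in which proteins, glycans, sulfated sugars and lipids that arrive by endocytosis or autophagy are broken down. Cathepsins and the other hydrolases work in the lumen, heavily glycosylated membrane proteins line and protect the limiting membrane, and the transcription factor TFEB can raise many of these genes together through CACGTG-containing promoter elements. In HSCs, lysosomes are known for their part in quiescence and in the clearance of damaged mitochondria.

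The study transplanted single Vwf+ HSCs, and 16 weeks later donor-derived HSCs were index sorted from recipient bone marrow, 1 cell per library. Groups were named for what the founder had restored: PLT (deposited status Plt_biased, platelet-restricted), PEM (P_E_M_biased, restricted to platelets, erythroid and myeloid cells) and MUL (Balanced, multilineage). Each group had 2 mice, with 93 and 84 cells in PLT, 93 and 25 cells in PEM, and 78 and 85 cells in MUL. All cells were from the C57BL/6 strain, had the sorted phenotype LSK CD150+CD48-CD45.2+, and were prepared with the SMARTer Ultra Low RNA kit. The cells of a mouse descend from 1 transplanted HSC, so a mouse is 1 clone and its cells are not replicates. Recorded sex was Male for PLT mouse 1, PEM mouse 1 and both MUL mice, and Female for PLT mouse 2 and PEM mouse 2. Both MUL mice came from 1 experiment and each of the other 4 mice had a separate experiment, so experiment and group cannot be told apart.

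A cell had a median of 4901255 mapped reads (range 1297688 to 17257487). The median number of detected genes per cell was 1869 and 2596 in the PLT mice, 3186 and 2752 in the PEM mice, with 2210 and 2553 in the MUL mice. At least 3 of 10 HSC markers were above 0 in 92.0% to 100% of the cells of each mouse, but the same measure gave 97.6% to 100% for 10 dendritic cell markers, so it does not tell HSCs from other cells. In PEM mouse 2, 44.0% of cells had 3 mature erythroid markers and 12% had 3 B cell markers above 0. Elane and Mpo, which mark granulocyte progenitors, were listed at 0 in all 6 mice. Between 5 and 9 of the 13 neutrophil markers in the table were above 0, depending on the mouse. These 13 summed to 3155 and 216 RPKM in the PLT mice and to 400 and 15158 RPKM in the PEM mice. For the MUL mice the sums were 261 and 1391 RPKM. The table held 15 macrophage and monocyte markers, with Marco and Siglec1 at 0 in every mouse. They summed to 403 and 517 RPKM in the PLT mice, 469 and 1320 RPKM in the PEM mice, with 448 and 629 RPKM in the MUL mice. At least 3 of them were above 0 in 25.8% and 26.2% of PLT cells, 52.7% and 32.0% of PEM cells, and 17.9% and 44.7% of MUL cells.

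The promoters of a few members are printed to show what the CACGTG element looks like in the genes whose values are described next. RefSeq promoter windows of 300 bases on GRCm38.p6 (250 bases before to 50 after a gene's start) were matched for 39 of the 43 genes, a few of which had more than 1 window. CACGTG, which reads the same on both strands, was present in at least 1 window of 13 of these 39 genes (33.3%), against 2187 of all 27025 genes with a window (8.09%). The longer TCACGTG, searched on both strands and always overlapping a CACGTG, was present for 12 of the 39 (30.8%), against 1160 of all genes (4.29%). The 250 bases before the start of 4 members follow, 5′ to 3′ on the strand of the gene, with each CACGTG and any adjoining T or A that makes it TCACGTG in capitals. Ctsd (chr7:142387828-142388077, minus strand) held 2 copies and Lamp1 (chr8:13158911-13159160, plus strand) held 4, while Man2b1 (chr8:85083019-85083268, plus strand) and Ctss (chr3:95526536-95526785, plus strand) held none.
Ctsd: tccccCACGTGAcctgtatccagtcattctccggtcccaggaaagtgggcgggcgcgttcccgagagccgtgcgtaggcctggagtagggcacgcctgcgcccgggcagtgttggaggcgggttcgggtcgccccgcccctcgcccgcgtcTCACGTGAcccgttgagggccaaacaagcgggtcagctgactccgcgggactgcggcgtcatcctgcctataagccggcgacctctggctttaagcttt
Lamp1: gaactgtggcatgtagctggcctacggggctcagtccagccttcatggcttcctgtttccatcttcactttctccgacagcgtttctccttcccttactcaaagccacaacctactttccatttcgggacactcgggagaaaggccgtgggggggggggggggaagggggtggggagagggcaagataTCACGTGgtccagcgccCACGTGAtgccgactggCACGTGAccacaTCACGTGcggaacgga
Man2b1: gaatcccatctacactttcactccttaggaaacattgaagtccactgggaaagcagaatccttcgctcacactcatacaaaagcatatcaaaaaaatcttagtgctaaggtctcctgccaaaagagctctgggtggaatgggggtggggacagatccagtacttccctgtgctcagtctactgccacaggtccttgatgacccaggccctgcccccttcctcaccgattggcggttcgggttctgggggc
Ctss: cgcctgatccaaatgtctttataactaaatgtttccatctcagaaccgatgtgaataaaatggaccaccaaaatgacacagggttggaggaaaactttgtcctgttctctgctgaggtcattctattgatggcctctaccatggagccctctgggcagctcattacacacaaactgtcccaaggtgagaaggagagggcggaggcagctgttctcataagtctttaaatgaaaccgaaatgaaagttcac

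In Lamp1 the 4 copies began at 61, 45, 28 and 15 bases before the start site, and in Ctsd they began at 245 and 98 bases before it. Mcoln1, which encodes a lysosomal calcium channel, held 2 copies (71 and 45 bases before the start), and so did 1 window of Cln3 (149 and 121 bases before the start). Gla also held 2 copies (227 and 194 bases before the start), as did 1 window of Ctsa (12 bases before and 5 bases after the start). The median log2 difference in level between PLT and MUL mice was -0.80 for the 13 members with CACGTG and -0.77 for the 26 without it. Between PLT and PEM mice the medians were -0.93 with the element and -0.35 without it. The members lower in PLT than in PEM mice were 10 of the 13 with it and 22 of the 26 without it. Against MUL mice these counts were 10 and 21. Between PEM and MUL mice the medians were 0.16 with the element and -0.20 without it. These are descriptions of letters in a window and carry no test.

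Across the 6 mice the members differed widely in level and in how many cells held them. Cd63, a tetraspanin of late endosomes and lysosomes, had the highest mean level, 650 RPKM over the 6 mice, and was at 1 RPKM or more in 80.0% to 98.9% of cells. Laptm5 (154 RPKM), Ctsd (131 RPKM), Ppt1 (113 RPKM) and Lamp1 (105 RPKM) came next. At the low end, Tfeb averaged 0.383 RPKM and Ids 1.03 RPKM. A value of 1 RPKM rested on a median of 3.72 to 20.9 reads, depending on the member, and 3678 of the 4578 member values between 0 and 1 RPKM (80.3%) rested on 1 to 3 reads.

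**Figure D1:**
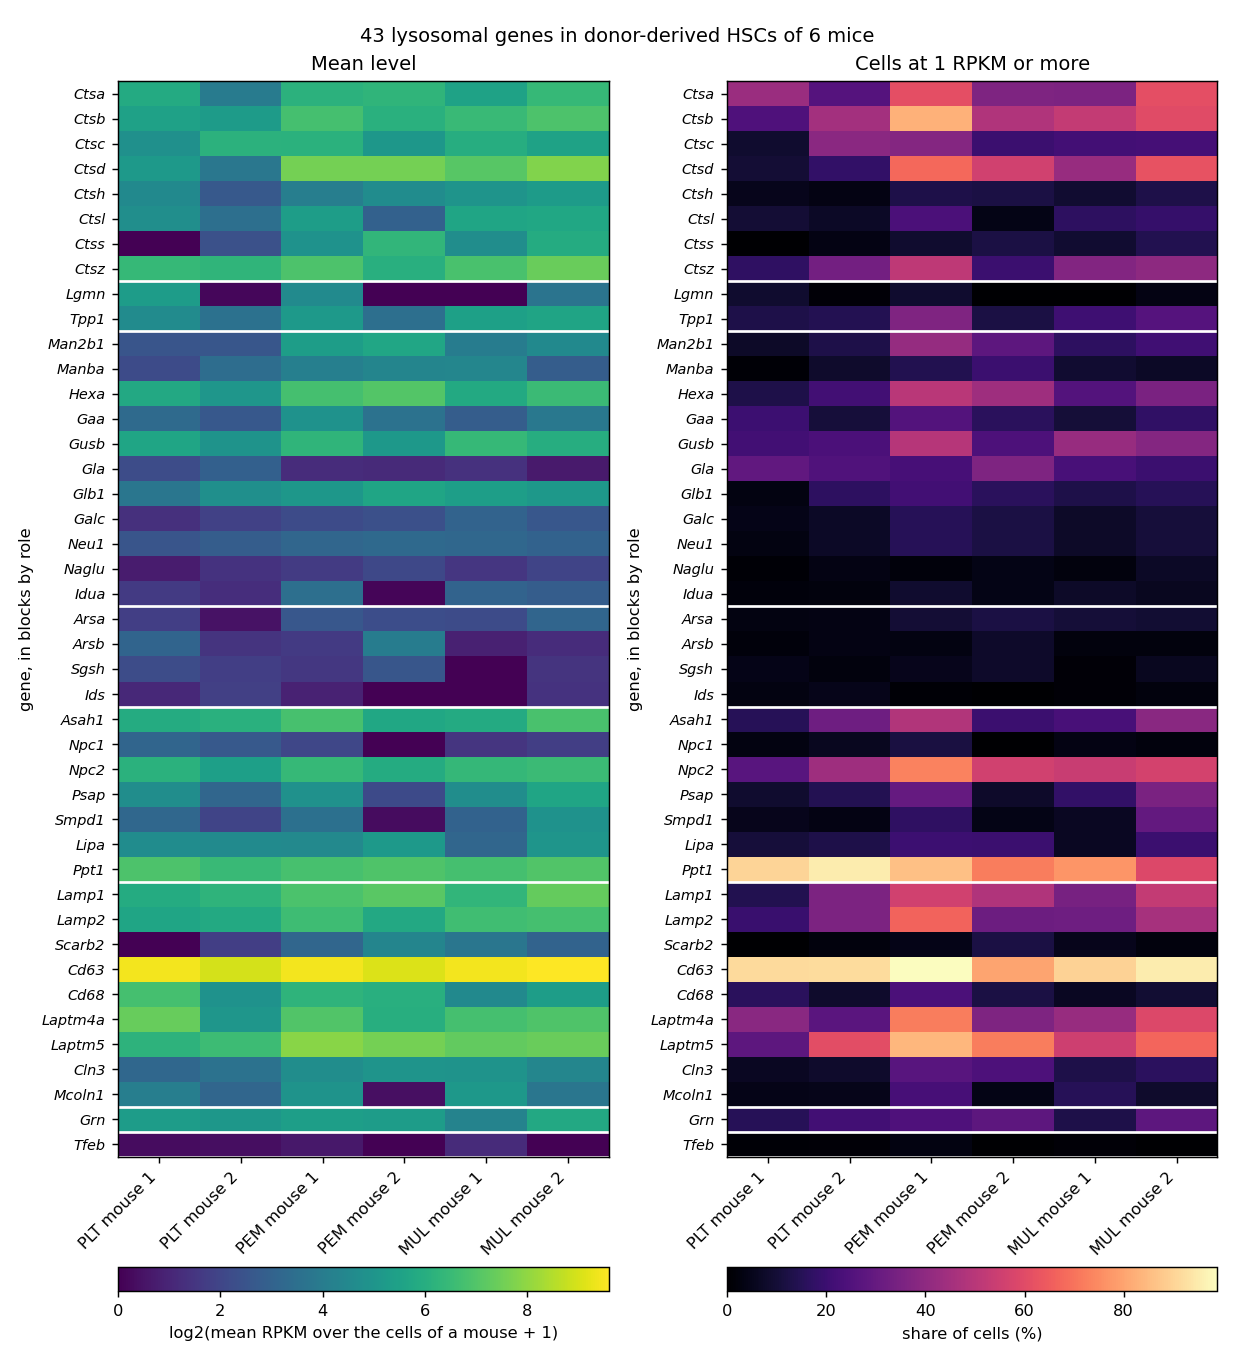
Left, log2(mean RPKM over the cells of a mouse + 1) of the 43 lysosomal genes in the 6 mice; right, the share of cells at 1 RPKM or more, in percent. Genes are in blocks by role from cathepsins at the top to Tfeb at the bottom; Cd63 is the brightest line in both panels, and the Ctsd line is darker in both PLT mice (9.68% and 17.9% of cells) than in the other 4.

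Cathepsins are the main lysosomal proteases. Summed over the 8 of them, mean levels were 297 and 233 RPKM in the PLT mice, 646 and 544 RPKM in the PEM mice, with 552 and 784 RPKM in the MUL mice. Each of the 8 had a lower mean log2 level in PLT than in MUL mice (median -1.42) and in PLT than in PEM mice (median -0.91). Against MUL all 8 were also lower with median-ratio scaling and with edgeR, and against PEM 5 of 8 with median-ratio scaling and 6 of 8 with edgeR, Ctsc and Ctsz being higher in both. Some differences counted as lower were near 0. Ctsc was at -0.00 for PLT minus MUL with edgeR, and Ctsl at -0.03 ± 0.81 for PLT minus PEM in the limma fit. Ctsl was higher against PEM with median-ratio scaling and with quantile normalization, and Ctsc higher against MUL with the mean over cells of log2 values. Of the 8 cathepsins, 3 had an unadjusted p under 0.05 in both contrasts (Ctsb, Ctsd and Ctss), and none passed adjustment over the 11337 genes tested.

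Ctsd, on chromosome 7, encodes cathepsin D, the main lysosomal aspartic protease. Its mean level was 35 and 12.9 RPKM in the PLT mice, 194 and 194 RPKM in the PEM mice, with 136 and 217 RPKM in the MUL mice. It was at 1 RPKM or more in 9.68% and 17.9% of PLT cells, 67.7% and 56.0% of PEM cells, and 42.3% and 62.4% of MUL cells. Both PLT mice were below the other 4 on both measures, and the upper ends of their exact 95% intervals, 17.6% and 27.7%, lay under the lower ends of all the other mice, the nearest being 31.2% in MUL mouse 1. These intervals cover the counting error of cells within a mouse only. They hold no spread between clones and are no test between groups. The log2 fold change was -2.95 ± 0.51 (SE) for PLT minus MUL (limma, unadjusted p = 3.58e-04, adjusted p = 0.289) and -3.12 ± 0.51 for PLT minus PEM (limma, unadjusted p = 2.41e-04, adjusted p = 0.539). Among cells at 1 RPKM or more, the median level was 309 and 49.7 RPKM in the PLT mice, 279 and 203 RPKM in the PEM mice, with 252 and 293 RPKM in the MUL mice. In PLT mouse 1 the few cells with Ctsd thus held it at a level like that of the other groups, while in PLT mouse 2 they also held less. Without the cells that carried neutrophil or macrophage markers the fold changes were -2.91 against MUL and -2.96 against PEM. A predicted gene, Gm49369, shares exon bases with Ctsd on the same strand, and reads of both cannot be told apart.

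**Figure D2:**
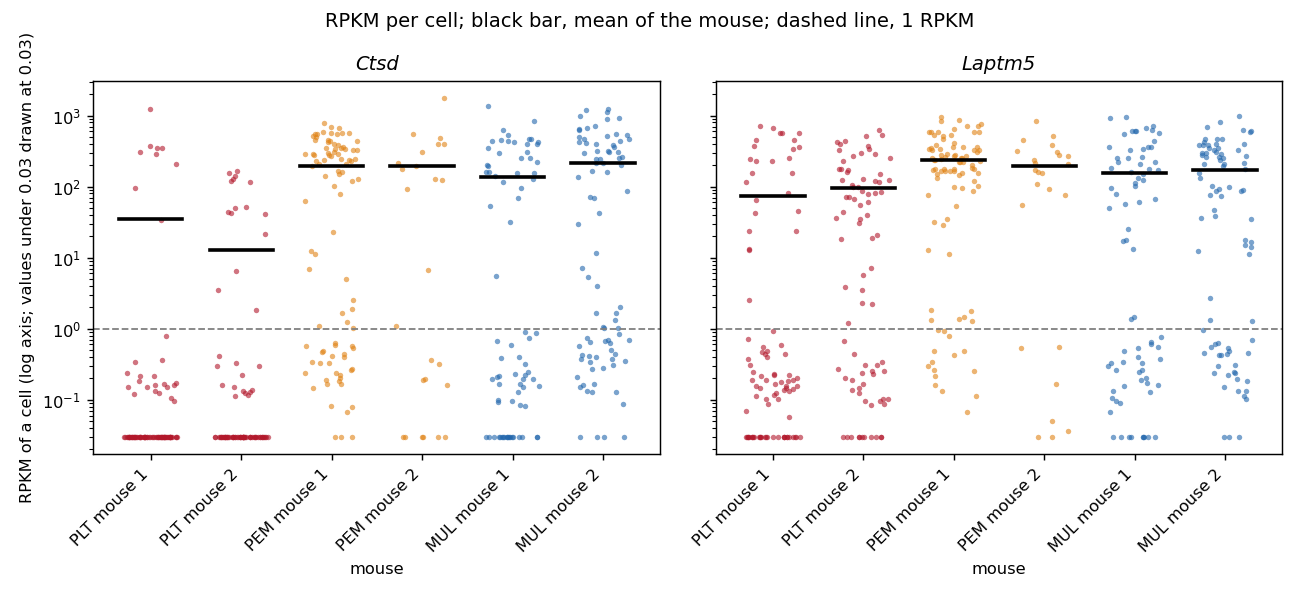
RPKM of Ctsd (left) and Laptm5 (right) in each of the 458 cells on a log axis, by mouse, with values under 0.03 drawn at 0.03; the black bar is the mean of the mouse and the dashed line marks 1 RPKM. Ctsd cells above the dashed line are few in the PLT mice (9 of 93 and 15 of 84) and many in PEM (63 of 93 and 14 of 25) and MUL mice (33 of 78 and 53 of 85).

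Ctsb encodes cathepsin B, a cysteine protease. Its mean level was 44.1 and 37.5 RPKM in the PLT mice, 109 and 66.7 RPKM in the PEM mice, with 90.9 and 120 RPKM in the MUL mice. The PLT mice were again the lowest pair, also by share of cells (24.7% and 45.2% in PLT, 82.8% and 48.0% in PEM, 52.6% and 60% in MUL). The log2 fold change was -1.34 ± 0.42 for PLT minus MUL (limma, adjusted p = 0.493) and -1.05 ± 0.42 for PLT minus PEM (limma, adjusted p = 0.585). Ctsb shares exon bases with Fdft1 on the opposite strand, and whether reads were counted by strand is not given in the sources used here.

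Ctss encodes cathepsin S, a cysteine protease prominent in antigen-presenting cells. Its mean level was 0.00551 and 4.23 RPKM in the PLT mice, 28.4 and 77.8 RPKM in the PEM mice, with 24.8 and 58.7 RPKM in the MUL mice. These means came from few cells: 0 of 93 and 3 of 84 PLT cells were at 1 RPKM or more, 8 of 93 and 3 of 25 PEM cells, and 7 of 78 and 12 of 85 MUL cells. The 0 of 93 cells allows a share of up to 3.23%. In PEM mouse 2, 1 cell held 98.3% of the summed Ctss. The fold change of -4.39 ± 0.92 for PLT minus PEM (limma, adjusted p = 0.539) was -2.21 with the highest cell of each mouse left out and -1.88 without cells carrying neutrophil or macrophage markers. For PLT minus MUL it was -4.10 ± 0.92 (limma, adjusted p = 0.461), and -3.88 and -3.92 under the same changes.

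The other 5 cathepsins had no unadjusted p under 0.05. Ctsz, the most abundant of them at 105 RPKM over the 6 mice, averaged 80.1 ± 6.09 RPKM in PLT, 92.3 ± 38.5 RPKM in PEM and 142 ± 38.3 RPKM in MUL mice (SD, n = 2 each). Ctsl, cathepsin L, averaged 18.2 ± 11 RPKM in PLT, 23.2 ± 22.9 RPKM in PEM and 50.3 ± 2.34 RPKM in MUL mice. Ctsc, which activates granule serine proteases, had similar group means, 49.2 ± 31.3 RPKM in PLT, 51.1 ± 25.8 RPKM in PEM and 53.8 ± 11.5 RPKM in MUL mice, with wide spread within PLT. Ctsa averaged 36.4 ± 30.3 RPKM in PLT and 64.8 ± 27.5 RPKM in MUL mice, and Ctsh 13.9 ± 12 RPKM in PLT and 33.9 ± 5.41 RPKM in MUL mice.

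Among the other proteases, Lgmn (legumain, which cuts after asparagine) ranged from 0 to 38.9 RPKM, and its PLT minus MUL fold change had an SE of 2.05 around 0.90. Tpp1, a tripeptidyl peptidase, averaged 17.3 ± 8.87 RPKM in PLT, 22.9 ± 17.7 RPKM in PEM and 45.4 ± 3.22 RPKM in MUL mice.

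Glycosidases remove sugars from glycoproteins and glycolipids. Their 11 mean levels summed to 147 and 127 RPKM in the PLT mice, 329 and 311 RPKM in the PEM mice, with 250 and 253 RPKM in the MUL mice, so that the pairs of mice did not overlap. All but Gla had a lower mean log2 level in PLT than in MUL mice (median -0.81) and in PLT than in PEM mice (median -0.80), as they did with median-ratio scaling, quantile normalization and edgeR. None passed adjustment.

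Man2b1, on chromosome 8, encodes lysosomal alpha-mannosidase. Its mean level was 4.81 and 4.86 RPKM in the PLT mice, 39.2 and 50.7 RPKM in the PEM mice, with 15.4 and 22.3 RPKM in the MUL mice. The 3 pairs of mice did not overlap, with PLT lowest and PEM highest. The share of cells followed the same order, at 7.53% and 13.1% in PLT, 41.9% and 28.0% in PEM, and 16.7% and 21.2% in MUL. The log2 fold change was -1.74 ± 0.56 for PLT minus MUL (limma, unadjusted p = 0.0140, adjusted p = 0.502), -2.97 ± 0.56 for PLT minus PEM (limma, unadjusted p = 6.60e-04, adjusted p = 0.539) and 1.22 ± 0.56 for PEM minus MUL (limma, unadjusted p = 0.0600, adjusted p = 0.867). In PEM mouse 2, 1 cell held 56.5% of the summed Man2b1. On whole reads recovered from the RPKM values and summed per mouse, edgeR gave a log2 fold change of -3.40 for PLT minus PEM (unadjusted p = 0.00108, adjusted p = 0.761).

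Hexa encodes the alpha subunit of hexosaminidase, which degrades GM2 ganglioside. Mean levels were 55.0 and 32.1 RPKM in the PLT mice, 109 and 130 RPKM in the PEM mice, with 55.2 and 92.8 RPKM in the MUL mice. PLT and PEM mice stood well apart, while PLT mouse 1 and MUL mouse 1 were nearly level. The log2 fold change was -1.48 ± 0.45 for PLT minus PEM (limma, adjusted p = 0.545) and -0.75 ± 0.45 for PLT minus MUL (limma, adjusted p = 0.700). The share of cells was 12.9% and 21.4% in PLT, 50.5% and 44.0% in PEM, and 25.6% and 35.3% in MUL.

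Gla, the alpha-galactosidase gene on the X chromosome, stood against the other glycosidases. It averaged 5.22 ± 2.19 RPKM in PLT, 1.27 ± 0.0576 RPKM in PEM and 1.09 ± 0.663 RPKM in MUL mice (SD, n = 2 each). Both PLT mice (3.67 and 6.76 RPKM) were above the other 4, the highest of which had 1.56 RPKM. The share of cells at 1 RPKM or more did not separate, at 29% and 25% in PLT, 22.6% and 36% in PEM, and 23.1% and 20.0% in MUL, and in the PLT mice 1 cell held 35.9% and 42.4% of the sum. Neu1, Galc, Naglu and Glb1 encode a sialidase, galactosylceramidase, N-acetylglucosaminidase and beta-galactosidase. Each had a lower mean level in both PLT mice than in the other 4. By share of cells this held for Neu1 and Galc but not for Naglu and Glb1. Glb1 was in 16.7% of cells in PLT mouse 2, against 21.5% and 16.0% in PEM and 12.8% and 15.3% in MUL. For Naglu, 1 cell held 100% of the sum in PLT mouse 1 and 99.8% in PEM mouse 2. For Galc, 1 cell held 75.7% of the sum in MUL mouse 1. Glb1 averaged 19.5 ± 9.66 RPKM in PLT, 40.8 ± 11.4 RPKM in PEM and 37.4 ± 4.94 RPKM in MUL mice, and the other 3 averaged under 10 RPKM over the 6 mice.

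Sulfatases, which strip sulfate from glycolipids and glycosaminoglycans, were sparse. The 4 genes summed to 14.8 and 7.01 RPKM in the PLT mice, 10.1 and 23.9 RPKM in the PEM mice, with 4.41 and 12.4 RPKM in the MUL mice, with overlap between all pairs. Arsa averaged 1.41 ± 1.47 RPKM in PLT, 4.47 ± 0.929 RPKM in PEM and 5.63 ± 2.96 RPKM in MUL mice. Arsb, Sgsh and Ids were instead higher in PLT than in MUL mice on the log2 scale, by 1.23, 1.26 and 0.74, at shares of no more than 8.0% of the cells of a mouse. None had an unadjusted p under 0.05 in the limma fit of levels.

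**Figure D3:**
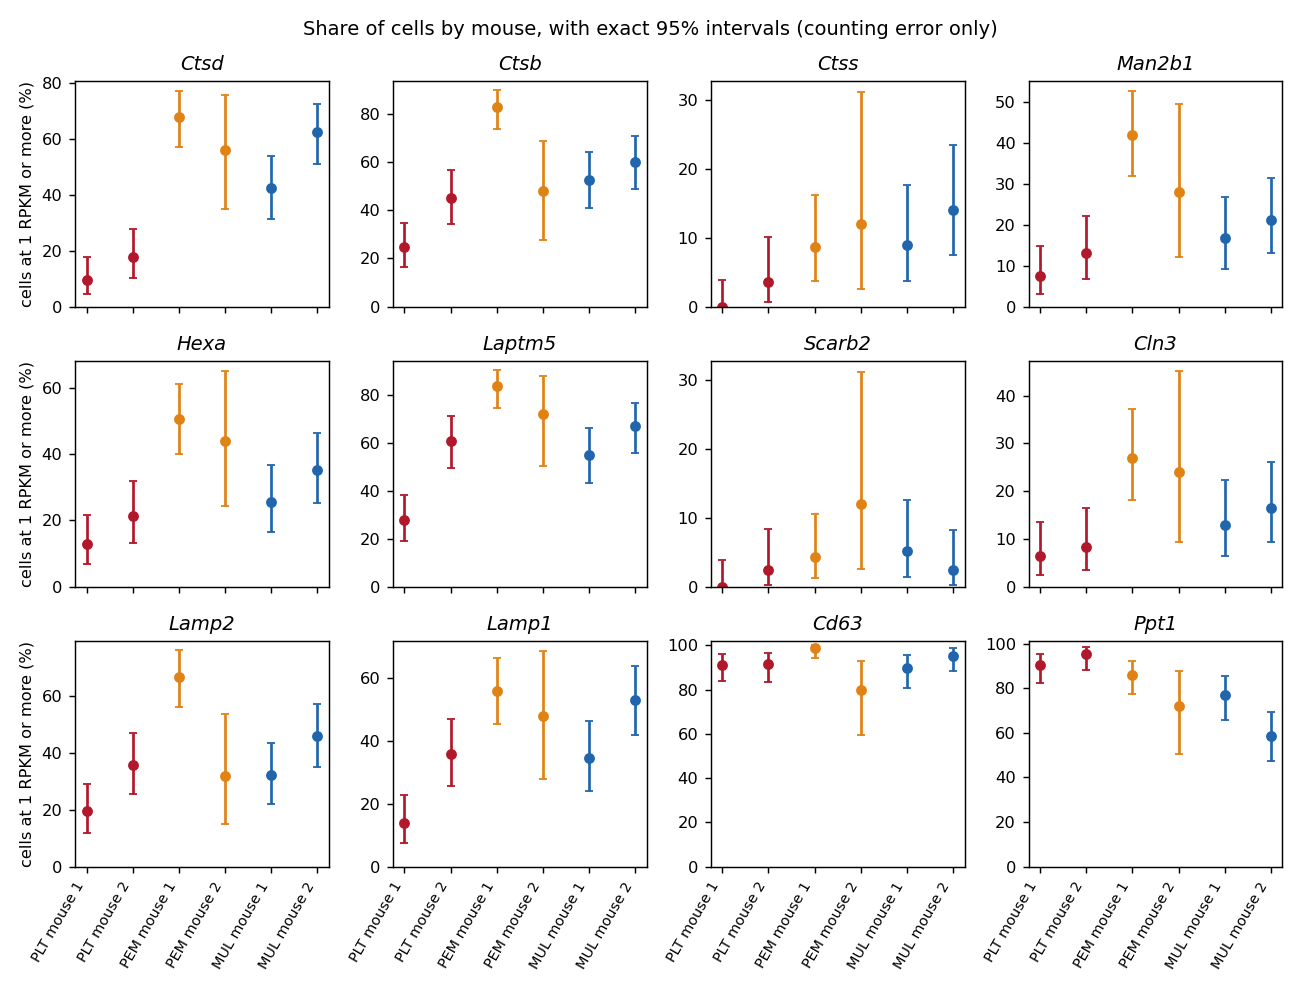
Share of cells at 1 RPKM or more (percent) in each mouse for 12 lysosomal genes, with 95% Clopper-Pearson intervals for counting error alone; each panel has its own vertical scale from 0. The PLT points are the 2 lowest for Ctsd, Ctsb, Ctss, Man2b1, Hexa and Cln3, and the 2 highest for Ppt1 (90.3% and 95.2%).

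Genes of lipid handling showed smaller differences. The 7 summed to 315 and 239 RPKM in the PLT mice, 370 and 274 RPKM in the PEM mice, with 293 and 444 RPKM in the MUL mice, and the groups overlapped. Their median log2 fold change was -0.37 for PLT minus MUL and -0.17 for PLT minus PEM, and none had an unadjusted p under 0.05 in the limma fit of levels. Npc2, a soluble cholesterol carrier, averaged 55.8 ± 19.2 RPKM in PLT, 72.0 ± 17.3 RPKM in PEM and 87.9 ± 6.44 RPKM in MUL mice. Asah1, acid ceramidase, averaged 63.5 ± 5.82 RPKM in PLT, 81.4 ± 43 RPKM in PEM and 86.8 ± 40.5 RPKM in MUL mice. Npc1, the membrane partner of Npc2, had a higher mean level in both PLT mice than in the other 4. It had 7.74 and 5.49 RPKM in PLT, 3.12 and 0.00721 RPKM in PEM, and 1.77 and 2.42 RPKM in MUL mice. The PLT levels came from 3 and 5 cells at 1 RPKM or more. By share of cells PEM mouse 1 was highest, with 3.23% and 5.95% in PLT, 11.8% and 0% in PEM, and 3.85% and 2.35% in MUL.

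Ppt1 encodes palmitoyl-protein thioesterase, which removes fatty acids from proteins. Per mouse, the mean was 121 and 89.4 RPKM in the PLT mice, 111 and 124 RPKM in the PEM mice, with 109 and 125 RPKM in the MUL mice, a log2 fold change of -0.17 ± 0.35 for PLT minus MUL (limma, adjusted p = 0.928). Its share of cells at 1 RPKM or more ran the other way from that of most members, at 90.3% and 95.2% in PLT, 86.0% and 72.0% in PEM, and 76.9% and 58.8% in MUL. Among the cells at 1 RPKM or more the median level was 7.33 and 4.38 RPKM in the PLT mice, 27.3 and 12.7 RPKM in the PEM mice, with 5.57 and 96.5 RPKM in the MUL mice. Most PLT cells thus held Ppt1 at a low level, while in MUL mouse 2 fewer cells held it at a much higher one. A limma fit of the shares over all genes gave an unadjusted p of 0.0158 for PLT minus MUL and an adjusted p of 1. Cap1 shares exon bases with Ppt1 on the opposite strand, and was at 1 RPKM or more in 2.15% and 4.76% of PLT cells, 9.68% and 12% of PEM cells, and 8.97% and 11.8% of MUL cells.

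Membrane proteins of the lysosome included the 2 most abundant members, Cd63 and Laptm5. Of the 9, all but Cd68 had a lower mean log2 level in PLT than in MUL mice (median -0.80), and all but Mcoln1 in PLT than in PEM mice (median -0.47), where with median-ratio scaling Cd63 was higher too and with edgeR Laptm4a alone was higher. Laptm5 encodes a lysosomal transmembrane protein of haematopoietic cells that lowers antigen receptor signalling. Mean levels were 72.6 and 95 RPKM in the PLT mice, 238 and 194 RPKM in the PEM mice, with 157 and 170 RPKM in the MUL mice. The 3 pairs did not overlap, in the same order as for Man2b1. The log2 fold change was -0.97 ± 0.34 for PLT minus MUL (limma, unadjusted p = 0.0211, adjusted p = 0.528) and -1.36 ± 0.34 for PLT minus PEM (limma, unadjusted p = 0.00371, adjusted p = 0.539). By share of cells, PLT mouse 2 (60.7%) lay above MUL mouse 1 (55.1%), while PLT mouse 1 was lowest at 28.0%, so PLT and MUL mice overlapped on that measure.

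Lamp1 and Lamp2 encode the major glycoproteins of the lysosomal membrane, and LAMP2 also serves autophagy. Lamp1 had 59.0 and 74.4 RPKM in the PLT mice, 116 and 139 RPKM in the PEM mice, with 79.6 and 161 RPKM in the MUL mice, and its log2 fold change was -0.77 ± 0.43 for PLT minus MUL (limma, adjusted p = 0.679). Lamp2 had 48.4 and 56.0 RPKM in the PLT mice, 96.3 and 54.4 RPKM in the PEM mice, with 101 and 109 RPKM in the MUL mice. PLT and MUL mice did not overlap for Lamp2 (log2 fold change -1.0 ± 0.42, limma, unadjusted p = 0.0430, adjusted p = 0.583), whereas PEM mouse 2 lay between the PLT mice.

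Scarb2 encodes the receptor that carries glucocerebrosidase to lysosomes. It was listed at 0 in PLT mouse 1 and had 2.42 RPKM in PLT mouse 2, while PEM mice had 8.05 and 19.6 RPKM and MUL mice 12.6 and 7.34 RPKM. Only 15 of the 458 cells were at 1 RPKM or more, 0 and 2 of them in the PLT mice, so the fold changes of -2.53 ± 0.90 against MUL (limma, adjusted p = 0.532) and -2.88 ± 0.90 against PEM (limma, adjusted p = 0.545) rest on few cells. Cln3, whose loss causes a neuronal lipofuscinosis, had 8.14 and 11.4 RPKM in the PLT mice, 25.1 and 30.5 RPKM in the PEM mice, with 29.5 and 20.0 RPKM in the MUL mice. Its share of cells was 6.45% and 8.33% in PLT, 26.9% and 24% in PEM, and 12.8% and 16.5% in MUL, and both measures left the PLT mice below the other 4 (PLT minus PEM -1.43 ± 0.55, limma, adjusted p = 0.572). Its exons share bases with Apobr on the opposite strand. In all, 13 of the 43 members share exon bases with another coding gene. Among them are Hexa, Lamp1, Ctsz and Npc1 on the opposite strand and Glb1 on the same strand.

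Cd63, by contrast, differed little. Per mouse, the mean was 695 and 506 RPKM in the PLT mice, 692 and 548 RPKM in the PEM mice, with 684 and 774 RPKM in the MUL mice, and the log2 fold change for PLT minus MUL was -0.30 ± 0.30 (limma, adjusted p = 0.829). Cd68, a macrophage-associated lysosomal glycoprotein, averaged 69.0 ± 57.3 RPKM in PLT, 70.3 ± 7.30 RPKM in PEM and 31.3 ± 12.2 RPKM in MUL mice, in 6.41% to 23.7% of cells. Grn, the granulin precursor, had similar group means, 35.4 ± 4.16 RPKM in PLT, 39.4 ± 1.85 RPKM in PEM and 36.8 ± 25.8 RPKM in MUL mice. Tfeb was at 0.234 and 0.270 RPKM in the PLT mice, 0.545 and 0 RPKM in the PEM mice, with 1.25 and 0 RPKM in the MUL mice, with 6 of 458 cells at 1 RPKM or more, which gave no basis for a comparison.

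Counted over the list, PLT mice had the lowest group mean for 32 of the 43 members, PEM mice for 5 and MUL mice for 6. That count was not made over all tested genes. By log2 fold change, 58.4% of all tested genes were lower in PLT than in MUL mice and 56.4% lower in PLT than in PEM mice. The median percent of mitochondrial reads was 6.41% and 6.69% in the PLT mice, 4.01% and 4.03% in the PEM mice, with 6.06% and 5.34% in the MUL mice, so the PLT mice were highest here, and its part in these counts was not tested. The summed level of all 43 was 2046 and 1462 RPKM in the PLT mice, 2858 and 2316 RPKM in the PEM mice, with 2389 and 3024 RPKM in the MUL mice, and without Cd63 it was 1154 ± 279 RPKM in PLT, 1968 ± 281 RPKM in PEM and 1978 ± 386 RPKM in MUL mice (SD, n = 2 each). Both PLT mice lay below the other 4 for 14 members (32.6%), against 12% of the 11337 genes tested, and above the other 4 for Gla and Npc1 (4.65%, against 6.15%). By share of cells at 1 RPKM or more, both PLT mice lay below the other 4 for 13 members (30.2%, against 13.8%). An exact permutation test of 2 mice against 2 cannot give a two-sided p below 0.33, so single values are given without one.

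For PLT minus MUL, 0 of the 42 tested members passed adjustment (limma, lowest adjusted p = 0.289, for Ctsd), and 1 gene of all those tested did (0.00882%). With an unadjusted p under 0.05, 7 members were lower in PLT (Ctsb, Ctsd, Ctss, Man2b1, Lamp2, Scarb2 and Laptm5) beside 5.96% of all genes, and 0 were higher, beside 2.44%. The fold change was below 0 for 33 of 42 members (78.6%), against 58.4% of all genes, and the median was -0.80 for the members and -0.18 for all genes. Median-ratio scaling moved the median of all genes to -0.04 and that of the members to -0.63, with 76.2% of the members and 51.8% of all genes lower in PLT, and quantile normalization moved them to 0.03 and -0.72. PLT and MUL mice did not overlap for 27 members, 23 lower and 4 higher in PLT, where 24.9% of all genes were lower and 14.8% higher. With edgeR on recovered reads 0 members passed adjustment and 3 were lower at an unadjusted p under 0.05 (Ctsb, Ctsd and Man2b1), beside 2.56% of all genes. A limma fit of the shares of cells called 0 genes and gave 3 members lower (Ctsd, Ctss and Arsa, beside 2.56% of all genes) and 1 higher (Ppt1, beside 0.741% of all genes) at an unadjusted p under 0.05.

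For PLT minus PEM, 0 members and 0 genes passed adjustment in limma (percent called 0), and edgeR on recovered reads also called 0. At an unadjusted p under 0.05 limma gave 8 members lower in PLT (Ctsb, Ctsd, Ctss, Man2b1, Hexa, Scarb2, Laptm5 and Cln3), beside 5.88% of all genes, and 0 higher, beside 2.49%, and edgeR gave 6 lower, beside 3.59%. By shares of cells limma gave 12 members lower, beside 9.74% of all genes. The fold change was below 0 for 35 of 42 members (83.3%), against 56.4% of all genes, with medians of -0.39 for the members and -0.13 for all genes. With median-ratio scaling the medians were -0.26 for the members and -0.01 for all genes, and 71.4% of the members and 50.6% of all genes were lower in PLT. Without overlap of the mice, 17 members were lower and 3 higher in PLT, beside 21.9% and 14.1% of all genes. Both contrasts use the same PLT mice, so they are not independent of each other.

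For PEM minus MUL the members showed no lean. In limma 0 members and 0 genes passed adjustment (percent called 0), and 0 members had an unadjusted p under 0.05, beside 2.79% of all genes lower and 2.80% higher. With edgeR on recovered reads 0 members passed adjustment, 0 were lower at an unadjusted p under 0.05, beside 1.55% of all genes, and 2 were higher (Man2b1 and Arsb), beside 2.23%. The fold change was below 0 for 20 of 42 members (47.6%), against 52.3% of all genes, and the median was 0.05. PEM mice lay above both MUL mice for 6 members and below them for 5, beside 17.5% and 18.3% of all genes.

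**Figure D4:**
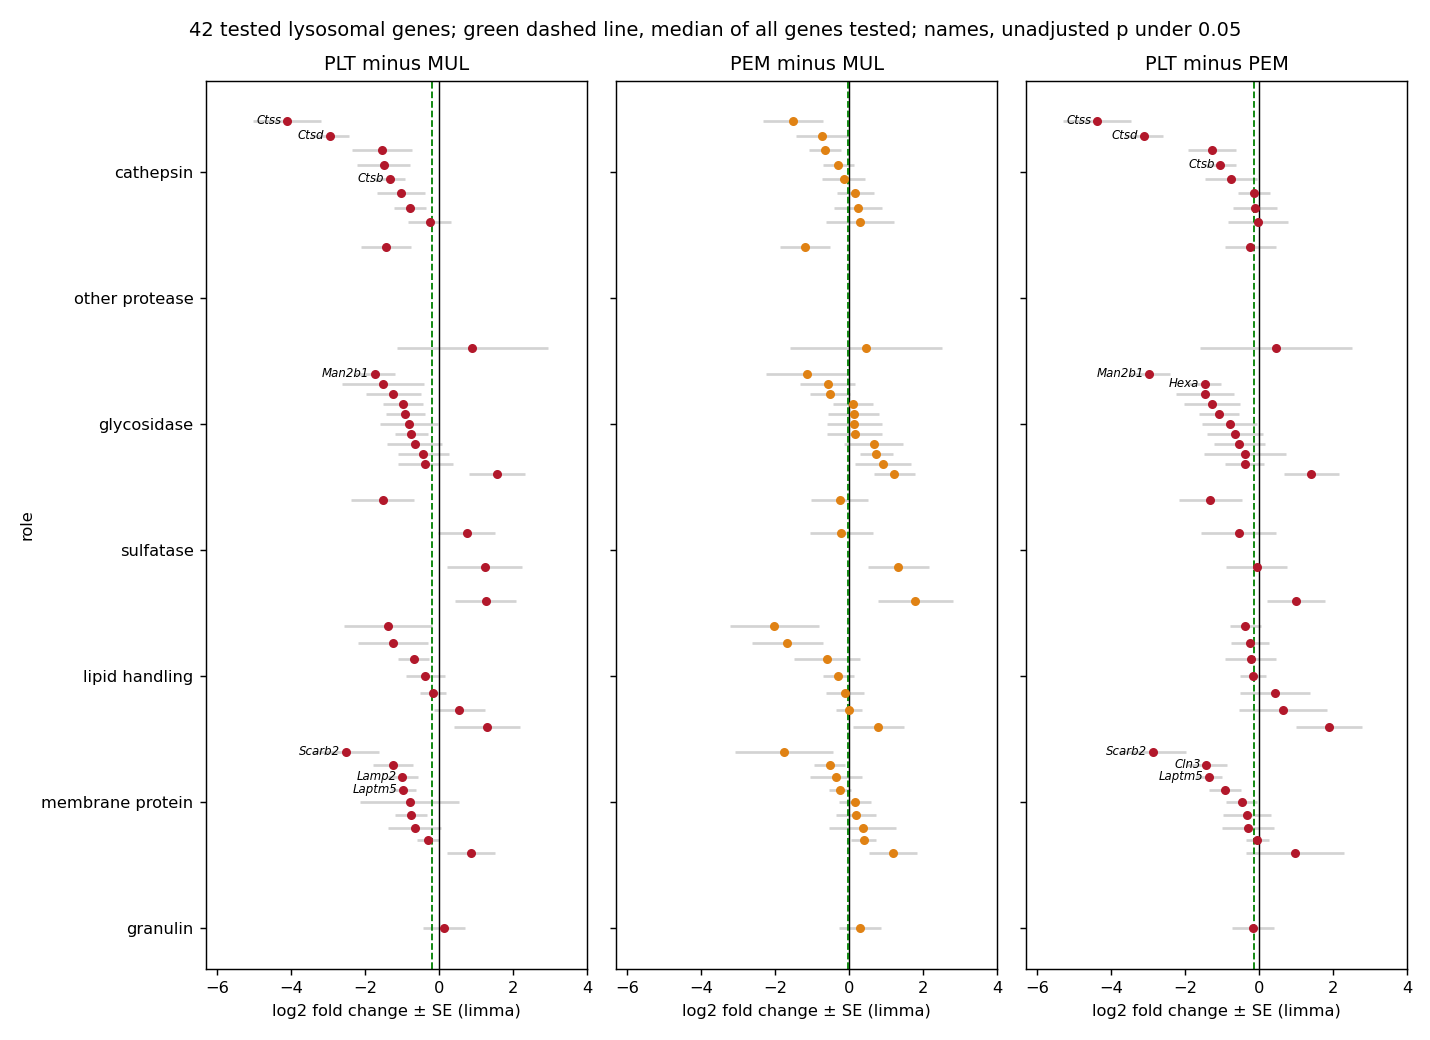
Log2 fold change ± SE (limma, mouse means of log2(RPKM + 1)) of the 42 tested lysosomal genes by role in the 3 contrasts, with the median of all genes tested as a green dashed line (-0.18, -0.04 and -0.13 from left to right) and names at an unadjusted p under 0.05. Cathepsins, glycosidases other than Gla and most membrane proteins lie left of 0 in both contrasts of PLT, and the points of PEM minus MUL scatter on both sides.

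A cell held few of these genes at a time. At 1 RPKM or more, the mean number of members per cell was 6.54 and 8.51 in the PLT mice, 14.5 and 9.92 in the PEM mice, with 9.22 and 11.6 in the MUL mice, a group mean of 7.52 ± 1.40 in PLT, 12.2 ± 3.22 in PEM and 10.4 ± 1.65 in MUL (SD, n = 2 each). Both PLT mice were below the other 4. Within each mouse the number was higher in cells with more detected genes (Spearman's rho 0.59 to 0.77 over the 25 to 93 cells of a mouse, a description of cells that share a mouse). Pairs of members, in contrast, were hardly correlated across the cells of a mouse, with median rho of 0.02 to 0.08.

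Set against all tested genes in the same cells, both PLT mice again stood lowest at the threshold of 1 RPKM. The share of members at 1 RPKM or more, divided by that of all tested genes, was 0.895 and 0.835 in the PLT mice, 1.22 and 0.979 in the PEM mice, with 1.07 and 1.19 in the MUL mice. Among cells with 1800 to 3000 detected genes the ratio was 0.924 and 0.807 in the PLT mice, 1.27 and 1.07 in the PEM mice, with 1.08 and 1.18 in the MUL mice. Without cells in which at least 3 neutrophil or macrophage markers were above 0, it was 0.879 and 0.820 in the PLT mice, 1.17 and 1.0 in the PEM mice, with 1.06 and 1.14 in the MUL mice. The band of detected genes kept 55 and 56 PLT cells, 36 and 11 PEM cells, and 53 and 62 MUL cells. Leaving out cells with markers kept 60 and 60 PLT cells, 44 and 14 PEM cells, and 63 and 44 MUL cells. In each of these sets of cells the PLT mice had the 2 lowest ratios. Counting every value above 0 RPKM, it was 1.08 and 0.982 in the PLT mice, 1.22 and 1.08 in the PEM mice, with 1.20 and 1.27 in the MUL mice, so that PLT mouse 1 and PEM mouse 2 were level.

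**Figure D5:**
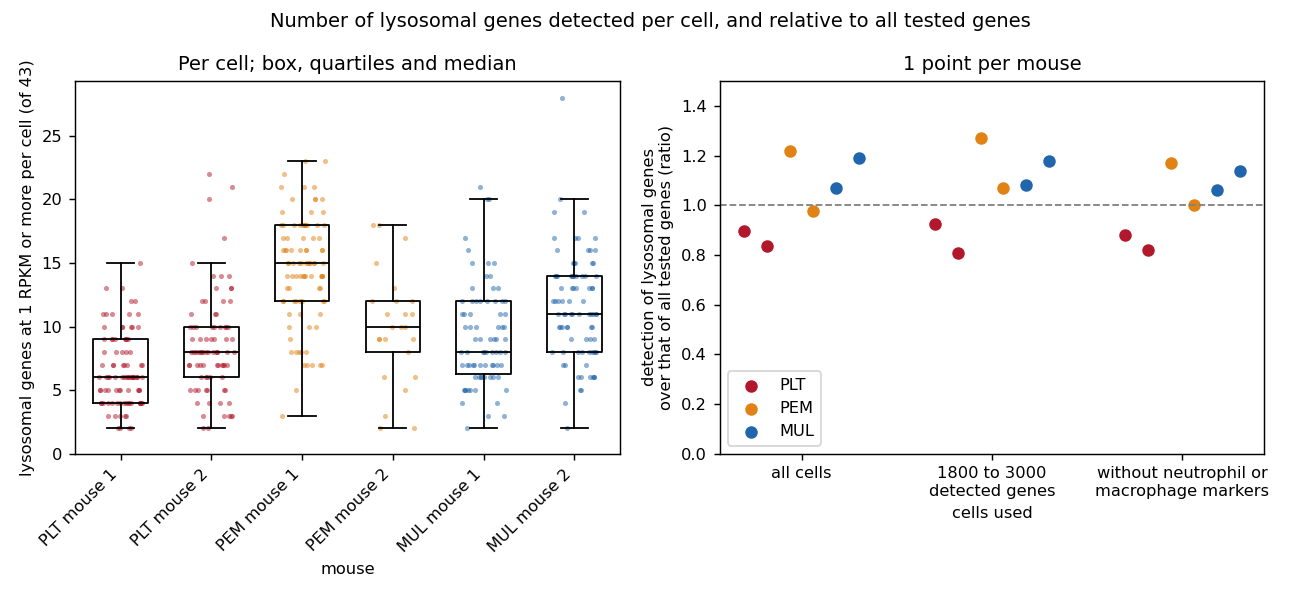
Left, number of the 43 lysosomal genes at 1 RPKM or more in each cell, by mouse, with box plots of quartiles and median (6 and 8 genes in the PLT mice, 15 and 10 in the PEM mice, 8 and 11 in the MUL mice). Right, share of lysosomal genes detected over the share of all tested genes detected, 1 point per mouse, in all cells and in 2 subsets; the red PLT points are the lowest in each.

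Other genes of the pathway, listed by function, passed no test either, with 1 exception among the protease inhibitors. The proton pump that acidifies lysosomes had 16 of 18 subunit genes tested and a median of 0.06 for PLT minus MUL and -0.01 for PLT minus PEM. One subunit, Atp6v1a, had an unadjusted p under 0.05 in both (4.63 and 18.2 RPKM in PLT, 42.7 and 49.9 RPKM in PEM, 45.5 and 33.0 RPKM in MUL mice; limma, adjusted p = 0.514 and 0.545). Of 22 genes of TFE factors and of the mTORC1 and Ragulator complexes, 11 were lower and 11 higher in PLT than in MUL mice. Mlst8, an mTOR subunit, had 0.0206 and 8.43e-04 RPKM in PLT, 3.85 and 2.14 RPKM in PEM, and 5.12 and 4.0 RPKM in MUL mice (limma, adjusted p = 0.480 for PLT against MUL, 0.563 against PEM). Lamtor1, a Ragulator subunit, had 42.3 and 66.1 RPKM in PLT, 80.3 and 66.9 RPKM in PEM, and 13.6 and 44.8 RPKM in MUL mice (limma, PEM minus MUL 1.52 ± 0.60, adjusted p = 0.867). Of 13 tested genes that tag and sort hydrolases through mannose 6-phosphate, 8 were lower in PLT than in MUL mice (61.5%, beside 58.4% of all genes; median -0.35), and Gnptg, a subunit of the tagging enzyme, had 3.81 and 6.38 RPKM in PLT, 22.7 and 17.4 RPKM in PEM, and 10.8 and 25.4 RPKM in MUL mice.

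Among 26 autophagy genes, 20 were lower in PLT than in MUL mice (76.9%, beside 58.4% of all genes). Their median was -0.39, beside -0.18 for all genes. Sqstm1, a cargo receptor of autophagy, had 67.9 and 30.9 RPKM in PLT, 123 and 85.7 RPKM in PEM, and 87.6 and 125 RPKM in MUL mice (limma, PLT minus MUL -1.17 ± 0.48, adjusted p = 0.582). Atg12, a ubiquitin-like conjugate of autophagy, had 54.1 and 40.1 RPKM in PLT, 54.4 and 56.3 RPKM in PEM, and 112 and 105 RPKM in MUL mice; all 4 PLT and PEM mice lay below both MUL mice (limma, adjusted p = 0.502 against MUL in PLT and 0.867 in PEM). Map1lc3b, Atg5 and Atg14 also had an unadjusted p under 0.05 in limma in 1 contrast each, Map1lc3b lower in PEM than in MUL, Atg5 higher and Atg14 lower in PLT than in PEM mice. At that threshold the 26 genes held 2 lower and 0 higher for PLT minus MUL, beside 5.96% and 2.44% of all genes. For PLT minus PEM they held 2 lower and 1 higher, beside 5.88% and 2.49%. For PEM minus MUL they held 2 lower and 0 higher, beside 2.79% and 2.80%. Of 38 tested lysosomal genes outside the list of members, 28 were lower in PLT than in MUL mice (73.7%, beside 58.4% of all genes). Their median was -0.55, beside -0.18 for all genes. Creg1 had 167 and 152 RPKM in PLT, 226 and 380 RPKM in PEM, and 297 and 291 RPKM in MUL mice. Ctso, another cathepsin, had 58.8 and 42.3 RPKM in PLT, 50.5 and 53.1 RPKM in PEM, and 88.4 and 124 RPKM in MUL mice (limma, adjusted p = 0.559 for PLT minus MUL). Ctns, Galns, Sidt2, Acp5, Tspan8 and Vps39 had an unadjusted p under 0.05 in limma in 1 contrast each. Ctns was higher in PLT than in MUL mice and Galns lower in PEM than in MUL mice, while for PLT minus PEM Acp5 and Tspan8 were higher and Sidt2 and Vps39 lower. At that threshold the 38 genes held 3 lower and 1 higher for PLT minus MUL, where 5.96% and 2.44% of all genes were, and 4 lower and 2 higher for PLT minus PEM, where 5.88% and 2.49% were. For PEM minus MUL the 38 genes held 2 lower and 0 higher, where 2.79% and 2.80% of all genes were. No gene of these 5 lists passed adjustment.

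The exception was Ctla2b, a gene similar to the propeptide region of cysteine cathepsins and counted among cathepsin inhibitors. It had 23.8 and 16.3 RPKM in PLT, 78.0 and 85.7 RPKM in PEM, and 362 and 455 RPKM in MUL mice, and was the 1 gene called for PLT minus MUL (limma, log2 fold change -4.29 ± 0.38, adjusted p = 0.0289; edgeR called 0 genes in that contrast). With any 1 of the 6 mice left out, 0 genes were called. Its close copy Ctla2a had 13.7 and 79.6 RPKM in PLT, 162 and 154 RPKM in PEM, and 286 and 517 RPKM in MUL mice (limma, adjusted p = 0.414), and reads of such copies may be split between them. Serpinb6b, a serpin, had 1.67 and 3.85 RPKM in PLT mice, against 22.9 and 32.5 RPKM in MUL mice (limma, PLT minus MUL adjusted p = 0.480).

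The number of detected genes, mitochondrial reads and mature-cell markers also differed between the mice. PLT mouse 1 had the fewest detected genes per cell and the fewest members per cell. Mapped reads did not follow the same order: PEM mouse 2 and MUL mouse 1 had the lowest medians, and within each mouse cells with more mapped reads held fewer members (Spearman's rho -0.5 to -0.16). Actb, the cytoplasmic actin gene, was also highest in PLT, at 10944 and 8885 RPKM in the PLT mice, 5033 and 6564 RPKM in the PEM mice, with 6257 and 3707 RPKM in the MUL mice. PEM mouse 2, with the highest summed neutrophil and macrophage markers, had the lowest level of 12 members and the highest of 11. It was also the mouse with the fewest cells, of which 11 came from a plate with a median of 12211646 mapped reads against 3196828 on its other plate. The part of detected genes, mitochondrial reads, Actb and markers in the differences beyond the subsets of cells given above was not tested.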

How the data were processed

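The deposited expression table holds RPKM values of 458 single cells, made by the authors with TopHat, featureCounts and the mm10 build, per the submitters' processing notes; their versions are not given in the sources used here. A second deposited table gives, per the file headers, each cell's count of mapped reads, count of detected genes, percent of mitochondrial reads, mouse, recorded sex and status. No cell was left out, and no cells had identical values.

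The cells of a mouse were reduced to 1 mean RPKM per gene, and log2(mean + 1) of the 11337 genes whose mean reached 1 RPKM in 2 or more mice was fitted with limma 3.58.1 (eBayes with trend, R 4.3.3, 1 mean per group over 6 mice, 8.33 degrees of freedom in total). Benjamini-Hochberg adjustment ran over all tested genes with a threshold of 0.05, and fold changes on this scale understate those of low genes. The p-values measure the spread between 2 clones per group. Intervals of shares are Clopper-Pearson (95%) and the limit for a share of 0 is 3 cells of the total; both cover counting error only.

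Whole reads were recovered from the RPKM values for 22594 of 22645 genes (99.85% of values above 0 came out whole within 0.001 reads; median 3596424 reads per cell). Those reads were summed per mouse and tested with edgeR 4.0.16 as an alternative chosen after the values were seen, and it called 0 genes in each contrast. The fits were tested on simulated data. Gene positions came from GENCODE M21, and promoters from RefSeq. The 43 genes and the pathway lists were chosen with earlier results of these data known. Values in every mouse are given for members with an unadjusted p under 0.05, for the 5 most abundant and for Tfeb; other members and genes named with values were picked after these were seen. One gene of the pathway lists is not reported here by name.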

Additional observations from a re-analysis of the deposited data

How the results depend on the processing

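No member passed adjustment in any of the 24 alternative fits across all genes (lowest adjusted p = 0.0715), and the 15 pairs of member and contrast with an unadjusted p under 0.05 kept their direction in all 24. The number of all genes called for PLT minus MUL, 1 in the fit reported, was 0 with a pseudocount of 0.1, the mean of log2 values, the share of cells, no variance trend, 25 cells per mouse, cells with 1800 to 3000 detected genes, no cells with neutrophil or macrophage markers, only the 4 mice of the contrast, edgeR, or any mouse left out (0 to 0). It was 2 with a pseudocount of 10 or without the highest cell, 3 with quantile normalization, 8 with a 10 RPKM filter and 19 without a filter. For PEM minus MUL, 0 became 9 without a filter and 1 with a 10 RPKM filter or without erythroid-marker cells, and for PLT minus PEM, 0 became 4 without a filter. The median log2 fold change over all 43 members was -0.79 for PLT minus MUL, and -0.47 with the mean of log2 values and -1.15 with 25 cells per mouse. For PLT minus PEM it was -0.39, and -0.80 with 25 cells per mouse, -0.23 with quantile normalization, -0.24 with a pseudocount of 10 and -0.25 with median-ratio scaling. For PEM minus MUL it was 0.00, and 0.21 with the mean of log2 values and -0.21 without the highest cell. With 1 mouse left out in turn, the medians ranged between -0.89 and -0.56 for PLT minus MUL, between -0.39 and 0.06 for PEM minus MUL, and between -0.81 (without PEM mouse 2) and -0.20 (without PLT mouse 2) for PLT minus PEM. The difference in relative detection, PLT minus MUL, was -0.266, -0.362 at a threshold of 10 RPKM and -0.205 above 0 RPKM. The cause of these moves was not tested. The 15 pairs above were picked by p in the fit reported and refitted on the same mice, so a kept direction is no separate support. For PLT minus MUL, edgeR gave an unadjusted p of 0.190 for Lamp2, 0.296 for Scarb2, 0.0910 for Ctss and 0.0748 for Laptm5. It gave one under 0.05 for Ctsb, Ctsd and Man2b1. The share of cells has its own scale and gave no median. No paired analysis was possible because no experiment held mice of different groups. The mouse numbers used here only follow the order of deposit.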
